A study of Mus musculus with 38 samples.

Results

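The genes described here form the signalling system of Met, the receptor tyrosine kinase that hepatocyte growth factor activates. They are Met itself, its ligand Hgf, the protease Hgfac, the second ligand Mst1 and its receptor Mst1r, the docking protein Gab1, the proteases St14 and Plau, and the inhibitors Spint1 and Spint2. Members were taken by the gene symbol of the array platform's annotation, and all 10 genes were found, with 16 probes among the 36607 on the array. Met, Hgf, Hgfac, Mst1, Gab1 and Plau had 1 probe each, Mst1r and Spint1 had 2, and St14 and Spint2 had 3. Of all probes, 26926 carried a single symbol (17501 genes in all), 203 carried several and 9478 carried none.

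RNA from whole mouse livers was measured on 38 arrays of 2 colours, covering 20 male mice in 4 groups of 5. All mice had received 1 injection of the liver carcinogen N-nitrosodiethylamine (DEN) at 10 µg per g of body weight when 14 days old, and all carried the Cre transgene as Alb-Cre +/-. The control mice (strain labelled B6129) carried Alb-Cre +/- alone, and the knockout mice (strain labelled 129SV/C57BL6) were Alb-Cre +/-; Met Fl/Fl. Livers were taken at 3 or 5 months. By the labels the animals were aged 12 weeks in the 3-month groups and 20 weeks in the 5-month groups, which is too young for these intervals to run from the injection, and the interval is therefore uncertain. The albumin promoter drives Cre in hepatocytes, so the other cells of the liver keep an intact Met gene, and a whole-liver value mixes both. Because the groups also differ in labelled strain, strain and genotype cannot be told apart. In whole tissue, fewer cells of a type and less RNA per cell cannot be told apart either. Nothing in the labels ties replicate numbers to litters or days.

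Each liver was hybridised against 1 common reference, pooled RNA of 5 wild-type male livers aged 12 weeks, with the dyes swapped on a second array for 18 of the 20 mice. Of the other two, 5-month knockout 2 was analysed from its liver-in-Cy3 hybridisation and 5-month knockout 3 from its liver-in-Cy5 hybridisation. A value below is 1 number per mouse, the log2 ratio of liver over reference, so that 0 means equal to the reference, -1 means a level of 1 part in 2 and 1 means a doubling. The ratio was read as Cy5 over Cy3, which is the likely direction but is stated nowhere in the sources used here. With Cy3 as the numerator every sign would be the reverse.

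Hepatocyte growth factor is secreted by stellate and other non-parenchymal cells of the liver as an inactive precursor. Hgfac, St14 (matriptase) and Plau (urokinase) are serine proteases able to cleave such precursors, and the Kunitz-type proteins Spint1 and Spint2 inhibit Hgfac and matriptase. Active growth factor binds Met on hepatocytes, and the docking protein Gab1 relays the signal, which is known for its role in liver growth and regeneration. Mst1 encodes macrophage-stimulating protein, made by hepatocytes, and Mst1r its receptor Ron.

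Promoter windows are printed for Met, for Spint1, whose first probe shared with Met a level below the reference in 19 of 20 mice, and for Spint2, whose first probe lay above it in 19 of 20. Each window runs from 250 bases before to 10 bases after a RefSeq transcript start (GRCm38.p6), 5′ to 3′. Capitals mark matches, on either strand, to TGANTCA, the core bound by AP-1 proteins, which is its own reverse complement, and to GGGCGG, the core of a GC box, which reads CCGCCC on the opposite strand.
Met (chr6:17463707-17463966, plus strand): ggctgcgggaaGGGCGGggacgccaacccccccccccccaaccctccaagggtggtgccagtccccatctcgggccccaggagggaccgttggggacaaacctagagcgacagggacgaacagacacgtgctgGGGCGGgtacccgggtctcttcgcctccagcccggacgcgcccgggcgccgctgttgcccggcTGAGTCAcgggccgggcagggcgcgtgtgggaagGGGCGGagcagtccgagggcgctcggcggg
Spint1 (chr2:119237110-119237369, plus strand): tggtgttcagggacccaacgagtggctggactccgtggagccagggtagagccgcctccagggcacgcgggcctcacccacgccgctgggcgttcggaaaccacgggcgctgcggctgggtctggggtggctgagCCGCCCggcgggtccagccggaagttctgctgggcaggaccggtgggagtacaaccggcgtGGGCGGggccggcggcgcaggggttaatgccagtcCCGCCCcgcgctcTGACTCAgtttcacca
Spint2 (chr7:29281968-29282227, minus strand): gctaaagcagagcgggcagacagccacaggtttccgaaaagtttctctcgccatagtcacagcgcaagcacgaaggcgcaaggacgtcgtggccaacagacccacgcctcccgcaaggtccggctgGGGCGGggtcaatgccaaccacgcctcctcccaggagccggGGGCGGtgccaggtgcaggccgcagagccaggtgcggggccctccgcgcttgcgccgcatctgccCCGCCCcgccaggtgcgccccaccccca

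The TGANTCA match begins 54 bases before the start in Met and 6 bases before it in Spint1. It was in no other window of the 8 members with a window in the RefSeq table, and in 7.81% of all 32851 windows. GGGCGG was found 3 times in each of the printed windows, and 35.7% of all windows held at least 1 match. It was also found 2 times in 1 window of Mst1r and 2 times in each window of Gab1. The share of G and C was 75.7%, 69.7% and 69.3% in the windows of Met, Spint1 and Spint2. Another motif searched, TATAAA on both strands, was in none of the printed windows and in 13.6% of all. Windows were searched over their full 300 bases, no match overlapped one of another motif, and a match is a description of the letters alone. St14 and Plau had no entry.

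Met was lower in these livers than in the reference in 19 of the 20 mice. Read with Cy5 as the numerator, the mice labelled knockout had the higher values at 3 months, and at 5 months the genotypes overlapped. The probe's place in the transcript is not known here, nor whether it lies inside the floxed part of the gene, so its level does not check the genotype labels. At 3 months the controls had values of -0.98, -0.66, -1.001, -0.62 and -0.80, and the knockouts -0.57, -0.59, -0.53, -0.55 and 0.28. All 5 knockouts lay above all 5 controls, and with Cy3 as the numerator they would lie below them. At 5 months the controls had -1.19, -0.61, -0.81, -0.67 and -0.37, and the knockouts -0.45, -0.67, -1.65, -0.53 and -0.62, and these ranges overlapped.

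The group means for Met, from lowest to highest, were -0.81 ± 0.18 (SD, n = 5) in 3-month controls, -0.78 ± 0.49 in 5-month knockouts, -0.73 ± 0.30 in 5-month controls and -0.39 ± 0.38 in 3-month knockouts. The first 3 of these lie within each other's spread. They stand 1.76-fold, 1.72-fold and 1.66-fold below the reference and the last 1.31-fold below it. Tested against the reference with limma, adjusted over all probes, Met was lower in 3-month controls (adjusted p = 0.000726), in 5-month controls (0.00234) and in 5-month knockouts (0.00149). In 3-month knockouts it was not past the threshold of 0.05 (adjusted p = 0.0645). The reference is a single pool, so its own spread is left out of these tests.

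That last group holds 1 mouse apart from the rest. In 3-month knockout 5 the deposited ratio for Met was -0.78 with liver in Cy5 and -1.34 with liver in Cy3. A ratio set by the liver alone would change sign between the arrays. The liver-in-Cy3 array of this mouse also stood apart over all probes. Its median correlation with the other arrays of its age and orientation was 0.43, against 0.55 to 0.66 for the others. At 5 months such medians were lower still with liver in Cy5, at 0.12 to 0.34, and were 0.67 to 0.76 with liver in Cy3. Without the liver-in-Cy3 array of 3-month knockout 5 the group mean was -0.57 and passed (limma adjusted p = 0.00453), and without the mouse it was -0.56. With liver in Cy5 alone the group mean was -0.78 (0.000427), and with liver in Cy3 alone -0.003 (0.990). It was -0.29 with arrays centred (0.189) and -0.28 after quantile normalisation (0.355), neither past the threshold.

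**Figure D1:**
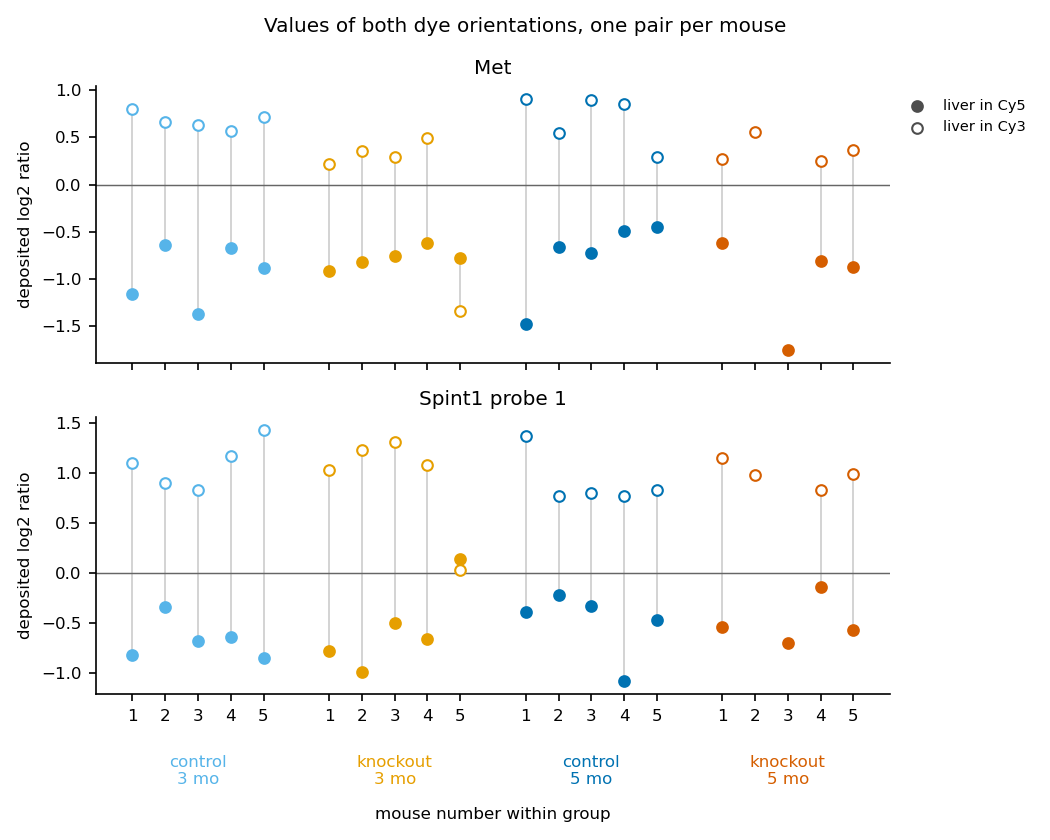
Deposited log2 ratios (vertical axis) of Met (upper panel) and the first Spint1 probe (lower panel) for each of the 20 mice (horizontal axis, mouse number within group), with liver in Cy5 as filled and liver in Cy3 as open circles joined by a line. For Met the circles lie on opposite sides of 0 in 9 of 10 mice at 3 months and 8 of 8 at 5 months, the exception being 3-month knockout 5.

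The dye swap gives an internal check against the dye effect, the part of a probe's ratio that both orientations share. Group means from 1 orientation alone, above and below, still hold this effect. For Met it was -0.26 at 3 months and -0.11 at 5 months. A difference between liver and reference changes sign on exchange of the dyes only where it is larger than the dye effect. The count of sign changes therefore depends on both. For Met the sign changed in 9 of 10 mice at 3 months and in 8 of 8 with both arrays at 5 months. Over all probes and mice the share was 41.2% at 3 months and 62.1% at 5 months. The first probe of Spint1 did the same as Met (9 of 10 and 8 of 8), followed by the first probe of Spint2 (8 of 10 and 7 of 8) and of St14 (9 of 10 and 6 of 8). Gab1 changed sign in 9 of 10 mice at 3 months and in 3 of 8 at 5 months. At the other end, Mst1, the first probe of Mst1r and the third of St14 changed sign in 1 of 10 mice each at 3 months. At 5 months they did so in 4, 6 and 7 of 8 mice. Hgfac, below the reference in 20 of 20 mice, changed sign in 6 of 10 and 3 of 8. Its dye effect was 0.34 at 3 months and 0.24 at 5 months.

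Between genotypes, no member probe passed the threshold at either age. At 3 months 0 of 16 passed the adjusted threshold in limma, where 0.071% of all probes did (26 of 36607), and 2 of 16 had an unadjusted p under 0.05, against 8.47% of all probes. At 5 months 0 of 16 passed, against 0.112% of all probes (41 of 36607), and 0 of 16 had an unadjusted p under 0.05, against 10.4%. A plain 2-sample version of the test that the study's design text names, at its unadjusted threshold of 0.001, called 0 members at either age, with 63 and 211 probes called in all and 0 and 1 left after Benjamini-Hochberg adjustment. The median knockout-minus-control difference over the 16 probes was 0.10 at 3 months and 0.07 at 5 months, beside -0.02 and 0.01 over all probes.

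For Met itself the knockout-minus-control difference at 3 months was 0.42 ± 0.22 (SE, 95% interval -0.04 to 0.88, adjusted p = 0.639 in limma). Met was the 1 member probe of 16 whose groups did not overlap at this age, as was the case for 1.31% of all probes, while at 5 months it was 0 of 16, against 3.93%. The exact two-sided permutation test gave its smallest possible p of 0.00794, unadjusted. Without the liver-in-Cy3 array of knockout 5 the difference was 0.24 ± 0.19. The experiment numbers in the labels fall into 4 blocks of consecutive numbers, and what a block stands for is not stated. Within the 2 blocks that hold both genotypes at 3 months the difference was 0.30 ± 0.19 and 0.44 ± 0.32. Arrays with liver in Cy5 alone gave 0.17 and those with liver in Cy3 alone 0.67.

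At 5 months the Met difference was -0.05 ± 0.22 (95% interval -0.51 to 0.41, adjusted p = 0.977 in limma), and its sign was not stable. It was 0.16 without 5-month knockout 3, whose single array gave the lowest Met value of all mice, and 0.17 within the block of numbers that holds both genotypes. One array of 5-month control 4, with liver in Cy5, correlated at -0.61 to -0.48 with the 10 arrays of the same orientation at 3 months. Without it the Met difference was 0.01, and with its sign turned -0.15. The difference between the ages was -0.47 ± 0.31 (adjusted p = 0.734 in limma).

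**Figure D2:**
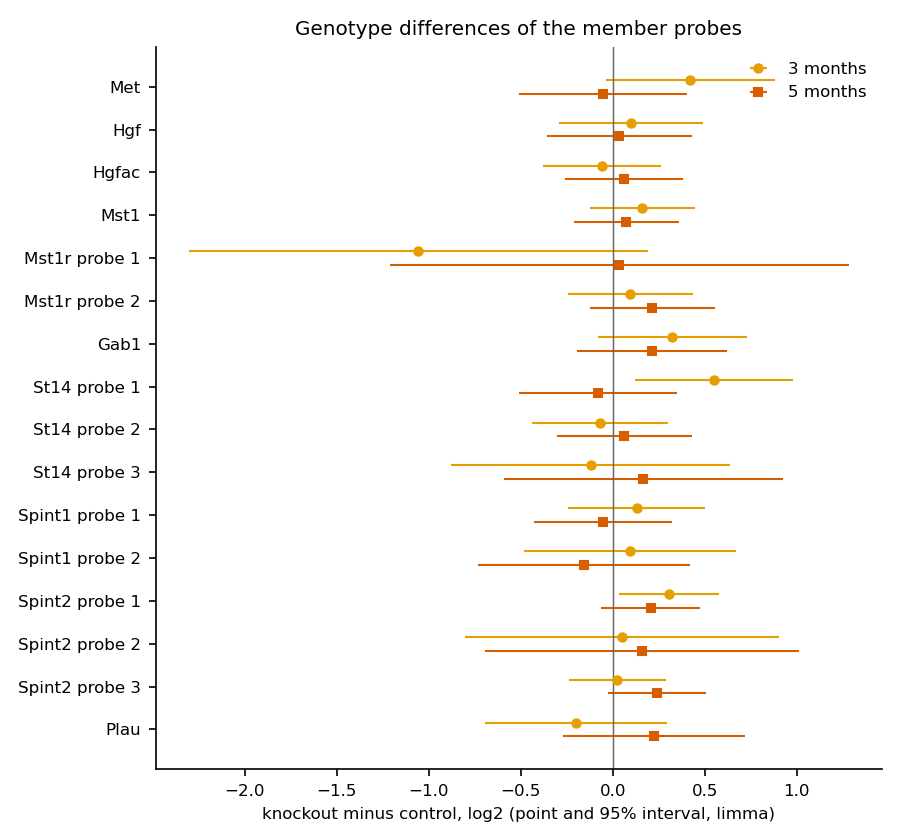
Knockout-minus-control difference on the log2 scale (horizontal axis) for each of the 16 probes (vertical axis), with 95% intervals from limma, as circles for 3 months and squares for 5 months. The intervals of the first St14 probe (0.12 to 0.98) and the first Spint2 probe (0.04 to 0.58) exclude 0 at 3 months before adjustment, and none does at 5 months.

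St14 encodes matriptase, and its first probe had the lowest unadjusted p of the members at 3 months. Controls had -0.46, -1.23, -0.20, -0.38 and -0.63, and knockouts -0.22, 0.21, -0.25, -0.38 and 0.48. The knockouts lay above the mean of the controls in 5 of 5 mice, and the ranges overlapped. The difference was 0.55 ± 0.21 (SE, limma, p = 0.0147, adjusted p = 0.423). At 5 months it was -0.08 ± 0.21, and the change between ages, -0.63 ± 0.29, had an adjusted p of 0.609 in limma. In that interaction 0 of 16 member probes passed, as did 0 of all probes, and 1 of 16 had an unadjusted p under 0.05, against 8.06% of all. Against the reference, the first probe passed as lower in 3-month controls (-0.58, adjusted p = 0.00529) and 5-month knockouts (-0.46, 0.023). The third probe passed in the other direction at 5 months, in controls (0.97, limma adjusted p = 0.00942) and in knockouts (1.14, 0.00365). The second and the third St14 probes differed by -0.07 ± 0.18 and -0.12 ± 0.36 between genotypes at 3 months, so the probes of this gene disagreed.

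Spint2, an inhibitor of matriptase and of the growth factor activator, lay above the reference on its first probe. Values at 3 months were 0.53, 0.23, 0.38, 0.18 and 0.27 in controls and 0.79, 0.61, 0.57, 0.34 and 0.82 in knockouts. At 5 months they were 0.37, 0.31, 0.45, -0.18 and 0.04 in controls and 0.51, 0.42, 0.35, 0.38 and 0.35 in knockouts. The knockouts lay above the control mean in 5 of 5 mice at both ages, with overlapping ranges. The differences were 0.31 ± 0.13 (limma adjusted p = 0.517) and 0.21 ± 0.13 (0.627). The third probe of this gene had 0.03 ± 0.13 and 0.24 ± 0.13.

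Against the normal reference, the share of members called lay on both sides of that of other probes. In 3-month controls 7 of 16 passed in limma, where 30.4% of all probes passed, and 4 of 16 without control 1. Of the 7, 1 was higher and 6 lower, beside 12.6% and 17.8% of all probes. In 3-month knockouts 4 of 16 passed (28.7% of all probes), 1 higher and 3 lower (10.7% and 18% of all). In 5-month controls it was 4 of 16 (30.8%), 1 higher and 3 lower (16.1% and 14.7%), and 1 of 16 with the sign of the array of control 4 turned. In 5-month knockouts it was 6 of 16 (30.8%), 2 higher and 4 lower (18.3% and 12.5%). The median over members was -0.27, -0.20, -0.14 and -0.03 in that order, beside -0.06, -0.12, 0.09 and 0.11 over all probes.

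Spint1, the other Kunitz-type inhibitor, was below the reference on its first probe in all 4 groups. Its means were -0.88 ± 0.20 (SD, n = 5) in 3-month controls, -0.75 ± 0.46 in 3-month knockouts, -0.70 ± 0.19 in 5-month controls and -0.76 ± 0.17 in 5-month knockouts. These are 1.84-fold, 1.68-fold, 1.63-fold and 1.69-fold below the reference (limma adjusted p = 7.41e-05, 0.000338, 0.00071 and 0.000422). With the sign of the array of 5-month control 4 turned, the mean of 5-month controls was -0.49 (adjusted p = 0.0566), and that of Met -0.63 (0.0342). With liver in Cy5 alone, Spint1 was not past the threshold in 5-month controls (-0.50, adjusted p = 0.0541) or 5-month knockouts (-0.49, 0.0856). The single mouse above the reference was again 3-month knockout 5, at 0.06, with the others of its group at -1.11 to -0.87. The second Spint1 probe had means between -0.28 and -0.05 and was not called in any group. Spint2's first probe passed in 3-month controls (0.32, adjusted p = 0.0126), 3-month knockouts (0.63, 0.000107) and 5-month knockouts (0.40, 0.00384) but not in 5-month controls (0.20, 0.104). It no longer passed in 3-month controls without control 1 (0.27), and it passed in 5-month controls without control 4 (0.29). With liver in Cy3 alone it was at 0.039 in 3-month controls (adjusted p = 0.771) and 0.14 in 5-month knockouts (0.383), neither past the threshold. Spint1 and Spint2 probes were singled out here after their values were seen.

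**Figure D3:**
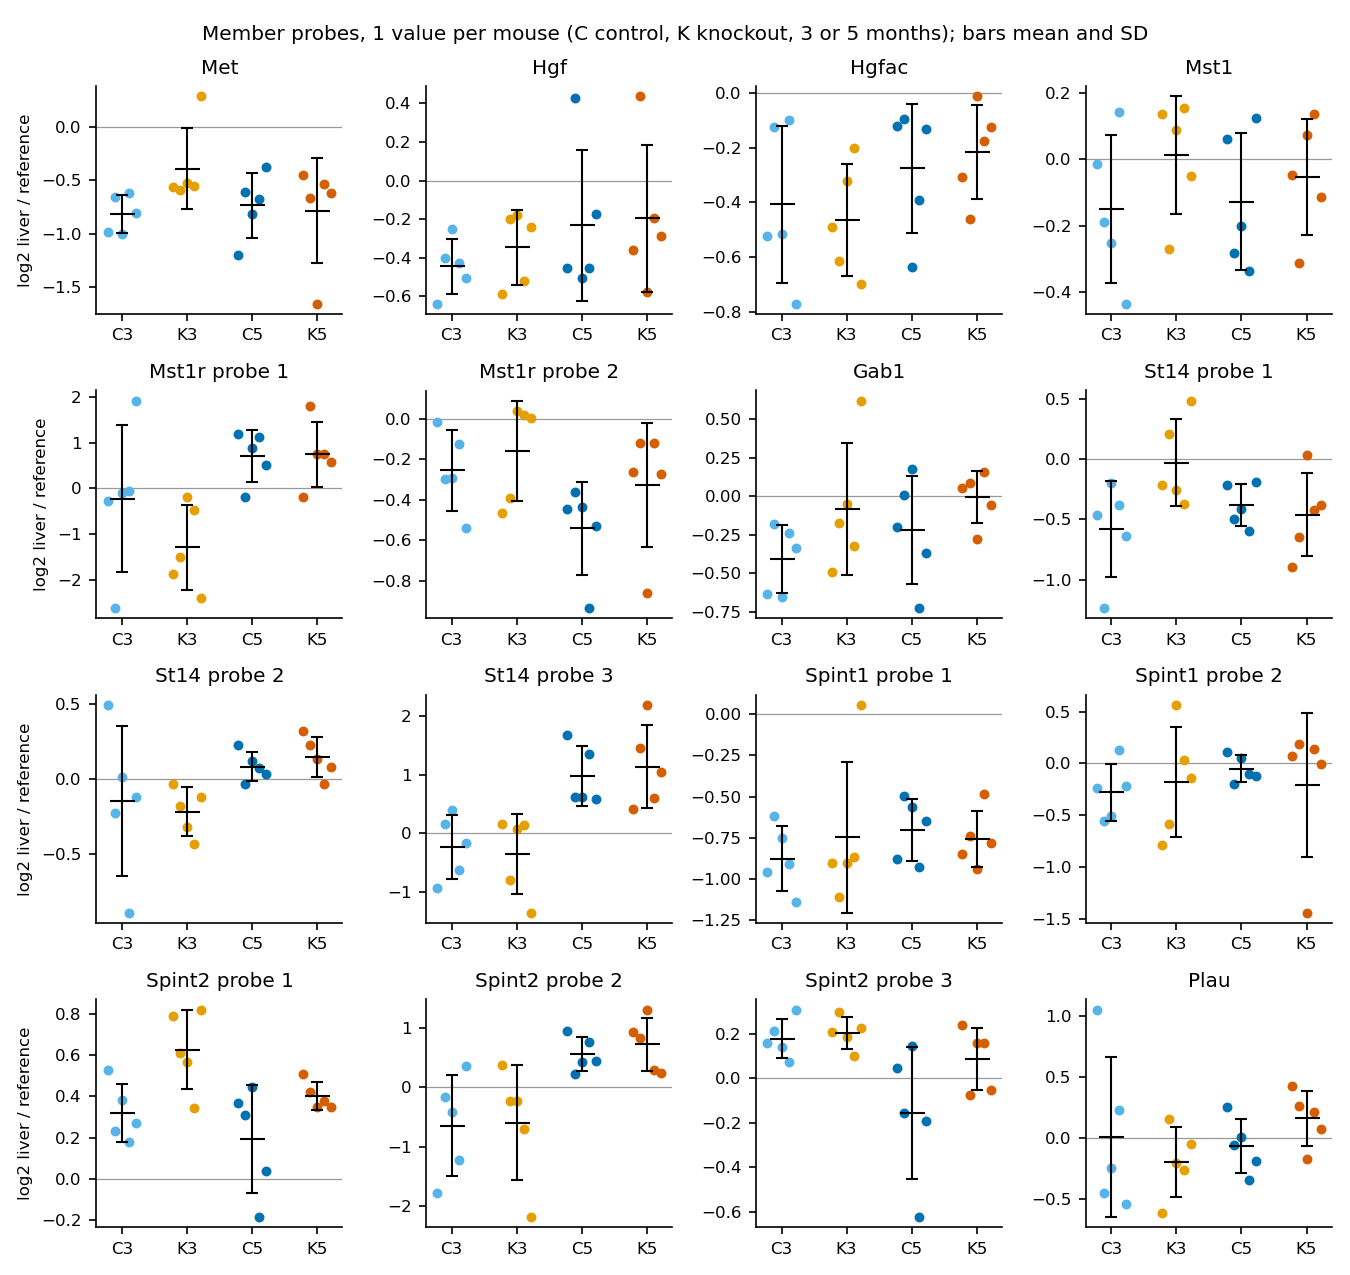
Log2 liver over reference (vertical axes, scaled per panel) for the 16 probes, 1 point per mouse and 5 per group, with bars for the mean and SD. C and K on the horizontal axes are controls and knockouts, and 3 and 5 the months. Met and the first Spint1 probe lie below 0 in 19 of 20 mice each, and the first Spint2 probe above 0 in 19 of 20.

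Of the ligands and their activator, Hgf was below the reference in 18 of 20 mice, with group means of -0.45, -0.35, -0.23 and -0.20 (3-month controls, 3-month knockouts, 5-month controls, 5-month knockouts), and passed in 3-month controls alone (limma adjusted p = 0.0162). The mean over 16 probes of stellate cell and fibroblast markers ran from -0.48 to -0.15, -0.43 to -0.11, -0.35 to -0.05 and -0.26 to -0.02 over the mice of these groups. Called lower were 5, 5, 8 and 6 of the 16 probes, beside 17.8%, 18%, 14.7% and 12.5% of all probes. Called higher were 0, 1, 3 and 1, beside 12.6%, 10.7%, 16.1% and 18.3% of all. The part of stellate cells, a source of Hgf in liver, in the values of Hgf was not tested. Hgfac, made by hepatocytes, was below the reference in 20 of 20 mice, with means of -0.41, -0.46, -0.28 and -0.22, and passed at 3 months in controls (0.00811) and in knockouts (0.00377). Knockout-minus-control differences were 0.10 ± 0.19 and 0.04 ± 0.19 for Hgf and -0.06 ± 0.15 and 0.06 ± 0.15 for Hgfac at 3 and 5 months. Mst1 stayed near the reference, between -0.43 and 0.16 in all mice, and was not called in any group.

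Among the receptors and transducers, the second probe of Mst1r was below the reference in 17 of 20 mice. It passed in limma at 5 months, in controls (-0.54 ± 0.23, adjusted p = 0.00242) and in knockouts (-0.33 ± 0.31, 0.0383). The first probe of the same gene ran from -2.61 to 1.91 over the mice. It passed as lower in 3-month knockouts (-1.28, limma adjusted p = 0.029). At 5 months its means lay above the reference, opposite to the second probe, at 0.70 in controls and 0.74 in knockouts, and neither passed. Gab1 had means of -0.41, -0.09, -0.22 and -0.01 in the group order above and passed in 3-month controls (adjusted p = 0.0297). Its knockout-minus-control differences were 0.32 ± 0.19 at 3 months and 0.21 ± 0.19 at 5 months. Plau had means between -0.19 and 0.16 and was not called in any group.

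Between the ages, the member probes called were the third of St14 and the first of Mst1r. Age and block of experiment numbers cannot be told apart, since no block holds both ages. In controls 1 of 16 probes passed in limma, against 15.3% of all probes, and in knockouts 2 of 16, against 6.28%. These comparisons share their mice with the genotype comparisons. The third St14 probe had -0.93, 0.16, 0.39, -0.62 and -0.17 in 3-month controls and 1.68, 0.61, 0.62, 1.35 and 0.58 in 5-month controls. The groups did not overlap, and the difference was 1.20 ± 0.36 (SE, adjusted p = 0.0326). In knockouts it was 1.49 ± 0.36 (0.0253), from 0.15, -0.79, 0.08, 0.14 and -1.34 at 3 months to 0.41, 1.45, 2.18, 0.60 and 1.04 at 5 months.

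The first Mst1r probe was called in knockouts, from -1.87, -1.49, -0.19, -0.48 and -2.38 at 3 months to -0.18, 1.80, 0.75, 0.75 and 0.59 at 5 months, a difference of 2.02 ± 0.60 (limma adjusted p = 0.0491). In controls it was 0.93 ± 0.60 (0.282). The second probe of Spint2 had -1.78, -0.17, -0.41, -1.23 and 0.36 in 3-month controls and 0.95, 0.22, 0.42, 0.75 and 0.44 in 5-month controls. In knockouts it had 0.38, -0.23, -0.23, -0.70 and -2.18 at 3 months and 0.93, 0.82, 1.30, 0.29 and 0.25 at 5 months. The ages overlapped in both genotypes, and no value was below 0 at 5 months. The differences were 1.20 ± 0.41 in controls and 1.31 ± 0.41 in knockouts (adjusted p = 0.0518 and 0.0584). The third Spint2 probe in controls had 0.16, 0.21, 0.14, 0.07 and 0.31 at 3 months and 0.05, -0.16, 0.15, -0.62 and -0.20 at 5 months, with overlapping ranges and a difference of -0.33 ± 0.13 (0.077). Sister probes of these genes had smaller differences, some of the opposite sign. The first and second St14 probes had 0.20 ± 0.21 and 0.23 ± 0.18 in controls, and -0.43 ± 0.21 and 0.36 ± 0.18 in knockouts. The second Mst1r probe had -0.29 ± 0.16 in controls and -0.17 ± 0.16 in knockouts. The first Spint2 probe had -0.12 ± 0.13 in controls and -0.22 ± 0.13 in knockouts, and the third -0.12 ± 0.13 in knockouts. Met differed between ages by 0.08 ± 0.22 in controls and -0.39 ± 0.22 in knockouts. The median shift of all probes between ages was 0.13 in controls and 0.14 in knockouts.

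These age calls depended on single mice, while the differences kept their sign with any 1 mouse left out. The St14 call in controls was lost without 3-month control 1 or 4 or 5-month control 1 or 4 (difference 1.02 to 1.36 over all single omissions), and with the sign of the array of 5-month control 4 turned (0.83, adjusted p = 0.237). In knockouts it was lost without 3-month knockout 2 or 5 or 5-month knockout 2 or 3 (1.23 to 1.67). The Mst1r call was lost without any 1 mouse of the comparison other than 3-month knockout 3 (1.75 to 2.30).

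The probes with the large age differences are also those whose ratios most often fell on values shared by many probes of the same array. Such repeated values, here a value held by at least 4 probes and by at least 3 times the mean of the 100 neighbouring values, were counted on each array. The first Mst1r probe sat on one in 11 of 38 arrays, the third St14 probe in 9 and the second Spint2 probe in 7. As many or more were found in 5.63%, 8.4% and 12.4% of all probes, and the other 13 members had 0 to 2. With liver in Cy3 alone, the age difference in knockouts was 0.37 for the first Mst1r probe and -0.48 for the third St14 probe. With liver in Cy5 alone these differences were 3.41 and 3.12. Values from 1 orientation still hold the dye effect, which differed between the ages for these probes. For Mst1r probe 1 it was -2.565 at 3 months and -0.53 at 5 months. For St14 probe 3 it was -1.44 and -0.15, and for Spint2 probe 2 -1.03 and -0.29. Its median over all probes was -0.33 and -0.07. What gives rise to repeated values, or to the change in dye effect, was not tested.

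**Figure D4:**
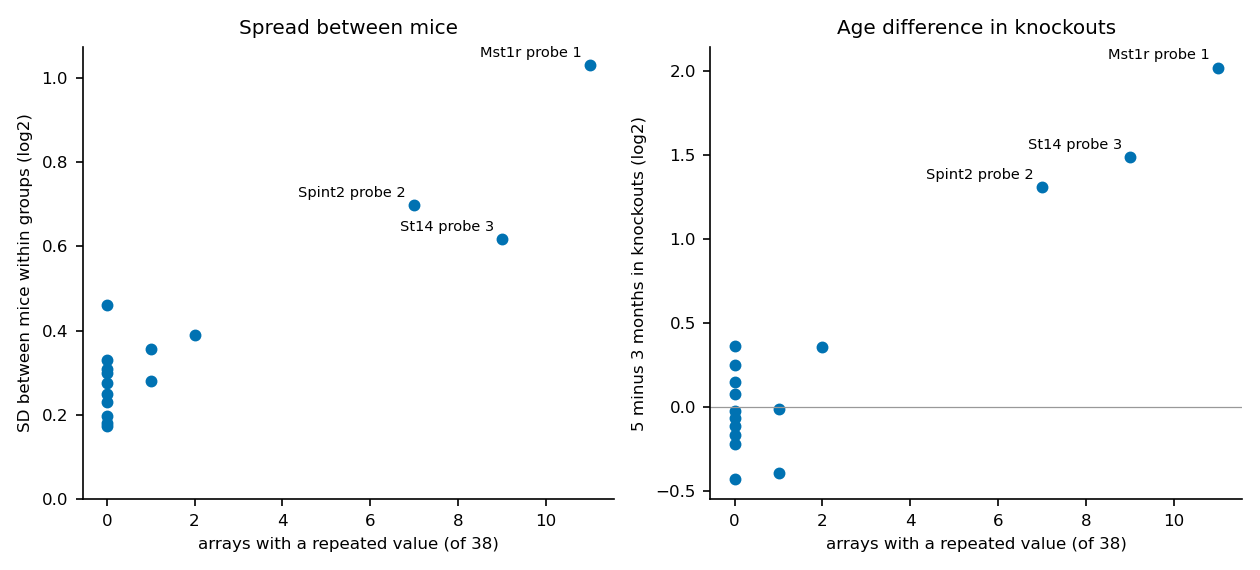
Number of arrays (of 38) on which a probe had a repeated value (horizontal axes) against its SD between mice within groups (left) and its 5-minus-3-month difference in knockouts (right), both in log2 units, for the 16 probes. The first Mst1r, the third St14 and the second Spint2 probes stand apart at 11, 9 and 7 arrays, with SDs of 1.03, 0.62 and 0.70 and differences of 2.02, 1.49 and 1.31.

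Other genes of the pathway were taken from a list of 58 genes sorted by role, of which 53 had probes (99 in all). Between genotypes 0 of 99 probes passed in limma at 3 months, at 5 months or in the interaction, and the median difference was 0.07 and 0.04 at the 2 ages. Nearest to the threshold was decorin (Dcn), a matrix proteoglycan that binds Met and is made by stellate cells. One Dcn probe had 0.55 ± 0.11 in 5-month knockouts over controls (adjusted p = 0.0506), and a second had 0.72 ± 0.20 (0.208). These were the 2 highest differences of the 99 probes at 5 months, and the other Dcn probes lay below both. At 3 months the outer values were -1.36 ± 0.35 for the phospholipase Plcg1 (0.166) and -0.39 for Itga6, and 0.34 for Adam17 and 0.37 for the adaptor Shc1. At 5 months the lowest were -0.80 ± 0.20 for Rapgef1, an exchange factor downstream of the adaptor Crk (0.147), and -0.43 for a Pik3r1 probe. In the interaction the outer values were -0.99 for Rapgef1, -0.57 for Adam10, 0.63 for Rap1a and 1.31 for Plcg1.

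By role, the median differences at 3 and 5 months were 0.08 and 0.15 for 15 probes of proteases and serpins, 0.07 and 0.06 for 30 probes of surface partners of Met, 0.01 and -0.01 for 41 probes of adaptors and effectors, and 0.13 and 0.01 for 13 probes of phosphatases and negative regulators. Between the ages, 8 of the 99 probes were higher and 11 lower in controls, where 7.97% and 7.35% of all probes were. The lower ones were 3 Dcn probes (-0.71, -0.69 and -0.52), the ubiquitin ligase Cbl (-0.85), the small GTPase Rap1a (-0.72), antithrombin (Serpinc1, -0.57), the coagulation protease F11 (-0.51), the kinase Map2k1 (-0.48), the phosphatase Ptpn11 (-0.42) and the adaptors Grb2 (-0.41) and Crk (-0.38). The higher ones were 2 probes of Pik3r1, the regulatory subunit of phosphoinositide 3-kinase (1.16 and 1.15), Rapgef1 (1.15), the phosphatase Ptprj (0.85), the hyaluronan receptor Cd44 (0.82), the adaptor Gab2 (0.67), the plasminogen activator Plat (0.65) and the protease Adam10 (0.48). In knockouts 3 were higher (Pik3r1 1.42, the kinase Src 0.89 and the protease Prss8 0.58) and 1 lower (the adaptor Grb2, -0.51), where 5.4% and 0.885% of all probes were. All of these passed an adjusted p of 0.05 in limma.

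Of the probes on 9 lists of cell type markers, 0 passed in either genotype comparison. The mean over hepatocyte markers, among them Alb and Ttr, ran from 0.15 to 0.34 in 3-month controls and from 0.17 to 0.48 in 3-month knockouts. At 5 months it ran from -0.51 to 0.20 in controls and from 0.10 to 0.34 in knockouts. Of the 9 lists, only the endothelial one did not overlap between genotypes, and only at 5 months. The mean of its markers then ran from -0.23 to -0.10 in controls and from -0.05 to 0.11 in knockouts. Among single probes, 3.93% of all did not overlap at that age, a share not matched to means over several probes. The part of cell composition in the values of the Met system was not tested.

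The probes whose values over the 20 mice were most like those of Met, by Pearson's r among 26925 other probes with 1 symbol, belonged to Bcan (0.79), Ambra1 (0.78), Mapk12 (0.77), Eml2 (0.76) and Srsf5 (0.75). Spearman's rho was 0.49, 0.75, 0.45, 0.53 and 0.61. Without the mice farthest from the median of Met, 5-month knockout 3 and 3-month knockout 5, r was 0.38, 0.63, 0.35, 0.37 and 0.46, lower for each of the 5. The points share arrays, dyes and the reference.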

How the data were processed

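Per the series' design text, the authors scanned the arrays with a GenePix 4000A, excluded invalid features and normalised each array to its median signal in the mAdb suite. The deposited numbers are on a log2 scale, as the spacing of the values shows. Background handling and the numerator of the ratio were not given in the sources used here. Arrays with liver in Cy3 were turned in sign, and array medians as deposited ran from -0.65 to 0.09. For each probe a dye effect was estimated within each age from mice hybridised in both orientations and removed before averaging per mouse, which alters only 5-month knockouts 2 and 3. Its median over probes was -0.33 at 3 months and -0.07 at 5 months.

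All 36607 probes were fitted over the 20 mice with limma 3.58.1 in R 4.3.3, with Benjamini-Hochberg adjustment over all of them. The number of mice and arrays limits the precision. The fit was checked on simulated data. Per-mouse values are given for Met and for member probes with an unadjusted p under 0.05, and ranges otherwise. Pathway genes are named where called, otherwise the 2 highest and 2 lowest, and the 5 probes of highest Pearson r are named as most like Met. The members and lists were chosen with earlier results of these data known. Same-numbered mice of different groups correlated at -0.28 to 0.19, so the numbers were not taken to pair mice. Alternatives were the dye orientation, turning, centring, quantile normalisation, the dye effect, block of experiment numbers, replicate block, the design text's test, single arrays and each mouse left out.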

Additional observations from a re-analysis of the deposited data

Results flagged for a closer look

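Within groups, 5 of the 64 sets of 5 values (16 probes in 4 groups) held a mouse far from the others, with a gap to its neighbour above 0.71 of the group's range. Chance alone marks about 1 in 20. For 3-month knockout 5 these were Met at 0.28 (nearest other -0.53) and the first Spint1 probe at 0.055 (nearest other -0.87). For 5-month knockout 3, which has a single array, they were Met at -1.65 (nearest other -0.67), the second Mst1r probe at -0.86 (-0.27) and the second Spint1 probe at -1.44 (0.00).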

How the results depend on the processing

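Between genotypes and in the interaction, 0 of 16 member probes were called in limma under every alternative run and with each mouse left out. With the replicate block, 0 members were called at either age, so the block changed no call. All groups hold the same replicate numbers, so this block cannot alter the differences themselves. At 3 months they were 0.42 for Met, 0.55 for the first St14 probe and 0.31 for the first Spint2 probe either way. With no array turned, the 3-month differences were -0.25 for Met, -0.071 for St14 and -0.18 for Spint2, the St14 interaction 0.033 and the age difference of Met in knockouts 0.0053. The 5-month Met difference was 0.34 with liver in Cy3 alone, 0.13 after quantile normalisation, 0.17 with the block of experiment numbers as a covariate or within the block of both genotypes, 0.013 without the liver-in-Cy5 hybridisation of control 4, and -0.17 to 0.16 with single mice left out. The age difference of Met in controls was -0.025 with liver in Cy3 alone, -0.065 with arrays centred, -0.51 after quantile normalisation and -0.0095 to 0.20 with single mice left out. The count of members called between ages in controls (1) was 5 with liver in Cy5 alone, 3 with no array turned or after quantile normalisation, 2 with arrays centred, 0 with liver in Cy3 alone, with a dye effect from all 18 mice, or with the odd array of control 4 dropped or turned, and 0 to 2 with single mice left out. In knockouts (2) it was 4 with liver in Cy5 alone, 0 with liver in Cy3 alone, 1 with arrays centred, with the dye effect from all 18 mice or without the liver-in-Cy3 hybridisation of 3-month knockout 5, and 0 to 3 with single mice left out; the third St14 probe was then at -0.48 with liver in Cy3 alone. Against the reference, liver in Cy5 alone gave 11, 12, 1 and 2 members called in 3-month controls, 3-month knockouts, 5-month controls and 5-month knockouts (7, 4, 4 and 6 otherwise), 5-month controls had 8 with liver in Cy3 alone, 9 after quantile normalisation and 1 with the array of control 4 turned, and 3-month controls had 4 to 8 with single mice left out. The first Spint2 probe in 5-month controls was at -0.010 with liver in Cy3 alone, and Met in 5-month knockouts at -0.36 (adjusted p = 0.172). The causes were not tested. With 1 orientation alone the dye effect was not removed. Omitting the dye effect gave no separate value at 3 months, where every mouse has both orientations. Dropping the liver-in-Cy3 hybridisation of 3-month knockout 5, turning the array of control 4 against the reference, between ages in controls and in the interaction, dropping it against the reference, and the dye effect from all 18 mice were chosen after seeing the data. Signal over background is not in the values, so no filter on dim probes was possible, and the reference is 1 pool.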
